A study of Mus musculus with 6 samples.

Results

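The SREBP and LXR sterol regulators are 8 genes that sense the sterol content of a cell and set how much cholesterol and fatty acid it makes, takes up and exports. They were taken by gene symbol from the deposited counts, and all 8 were found among 32285 genes. Counts are of unique molecular identifiers (UMIs, a tag on each captured transcript) from single-nucleus RNA sequencing of frozen mouse forebrain at postnatal day 16 from 3 wild-type (WT) and 3 Npc1-/- mice. Per the methods, the mutants were homozygous for the Npc1nih allele, a germline null allele, and both genotypes were F1 hybrids of BALB/cJ and C57BL6/J and littermates. Npc1 encodes the lysosomal transporter that releases cholesterol from lysosomes.

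All 6 libraries stand in 1 matrix with a suffix on each barcode, and no source used here ties a suffix to a mouse. WT and Npc1-/- were thus not set against each other, every class level below is over nuclei of both genotypes, and the libraries are given singly or by their lowest, median and highest value. Npc1 was counted at 25.5 to 32.2 CPM (counts per 1000000 UMIs) in the 6 libraries, with a median of 29.6, and was not used to place a library. No test between groups was made, because the libraries could not be placed in a group. Classes were compared by levels and ratios, also within each library, and without a test. A Dixon check for outlying libraries is given at the end. All intervals are exact 95% intervals of counting error and do not cover variation between mice.

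Sterol sensing works as a switch at the endoplasmic reticulum. The transcription factors SREBP1 (gene Srebf1) and SREBP2 (Srebf2) are held there with their escort SCAP by the anchors INSIG1 and INSIG2 when sterol is plentiful, and move to the Golgi to be cut free when it is scarce. SREBP2 then drives genes of cholesterol synthesis and uptake, and SREBP1 genes of fatty acid synthesis. The liver X receptors LXRα (Nr1h3) and LXRβ (Nr1h2) sense the opposite state: they bind oxysterols, turn on export genes and Srebf1, and induce Mylip (IDOL), a ubiquitin ligase that sends lipoprotein receptors to degradation. The brain makes its own cholesterol, largely in oligodendrocytes during myelination and in astrocytes.

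The promoter windows of Srebf2, Insig1 and Mylip are shown because these genes stood out in oligodendrocytes, astrocytes or microglia in the results below. Each runs from 250 bases before to 50 bases after a RefSeq start (GRCm38.p6), 5′ to 3′ on the plus strand of the gene, and capitals mark matches on either strand to TCACNCCA (a sterol regulatory element, SRE), CACGTG (an E-box) or CCAAT (an NF-Y box).
Srebf2, chr15:82147019-82147318, plus strand: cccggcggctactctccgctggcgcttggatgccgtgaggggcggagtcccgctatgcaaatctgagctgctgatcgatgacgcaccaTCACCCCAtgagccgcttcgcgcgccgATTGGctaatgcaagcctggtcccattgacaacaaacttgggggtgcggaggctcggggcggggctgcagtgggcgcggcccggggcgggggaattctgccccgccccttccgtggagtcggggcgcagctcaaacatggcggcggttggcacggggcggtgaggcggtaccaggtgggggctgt
Insig1, chr5:28071162-28071461, plus strand: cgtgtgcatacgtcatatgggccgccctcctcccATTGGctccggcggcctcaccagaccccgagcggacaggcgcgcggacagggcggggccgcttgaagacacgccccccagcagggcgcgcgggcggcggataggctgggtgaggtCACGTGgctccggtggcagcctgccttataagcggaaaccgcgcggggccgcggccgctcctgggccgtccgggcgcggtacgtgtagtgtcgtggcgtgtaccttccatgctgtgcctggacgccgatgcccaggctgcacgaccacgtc
Mylip, chr13:45389492-45389791, plus strand: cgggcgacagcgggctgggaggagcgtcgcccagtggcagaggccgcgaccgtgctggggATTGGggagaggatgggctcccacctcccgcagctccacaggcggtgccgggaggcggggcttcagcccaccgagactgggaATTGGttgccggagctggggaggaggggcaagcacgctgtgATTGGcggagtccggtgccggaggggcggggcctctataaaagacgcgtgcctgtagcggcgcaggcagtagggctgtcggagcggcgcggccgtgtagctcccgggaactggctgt

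Srebf2 had the SRE letters 162 bases before its start and a CCAAT box 135 bases before it. Insig1 had an E-box 101 bases and a CCAAT box 216 bases before its start, and Mylip had 3 CCAAT boxes, at 190, 108 and 67 bases before its start. Over 32851 windows of all genes, 4.36% held the SRE letters, 7.15% the E-box and 37.4% a CCAAT box. The 8 genes had 14 windows, of which 1 held the SRE letters, 3 the E-box (Insig1 and both windows of Scap, which overlap and hold the same E-box) and 6 a CCAAT box. These are matches of letters and not sites of binding, and windows without a match say nothing on other spellings of a site.

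All 8 genes are protein coding (GENCODE M21 on GRCm38, matched by identifier). Srebf1 lies at chr11:60199089-60222581 on the minus strand and overlaps Rai1 on the other strand. Srebf2 lies at chr15:82147181-82205379 and holds the miR-33 hairpin gene (chr15:82198122-82198190) on its own strand, outside any of its annotated exons. Scap is at chr9:110333288-110384950, Insig1 at chr5:28071363-28078662, Insig2 at chr1:121304353-121332589, Nr1h2 at chr7:44549616-44553951, Nr1h3 at chr2:91184061-91202834 and Mylip at chr13:45389742-45412022. Nr1h3 shares part of its span and its strand with the gene model Gm13783, so that some of its reads could have been assigned to either.

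The matrix held 75878 barcodes with 497750379 UMIs, and libraries 1 to 6 had 8217 to 16118 barcodes, 51343653 to 107583300 UMIs and a median of 4469 to 5439 UMIs per nucleus. After 11 barcodes with 10% or more mitochondrial UMIs were left out, nuclei were gated by lists of 6 to 8 marker genes, and 26993 nuclei (35.6%) passed for 14 classes, with 33.0% to 37.2% in each library. Of these, 11764 (43.6%) passed with no marker to spare, and a macrophage gate with 47 nuclei was dropped. Among the classes used most below were 1096 OPC-like (oligodendrocyte progenitor cells), 1600 immature and 1644 mature oligodendrocyte-like, 6687 astrocyte-like, 2475 microglia-like, 2537 cortical excitatory neuron-like and 660 pericyte-like nuclei. No class had a marker of another class among its 10 leading genes by fold over the other classes. Astrocyte-like, choroid plexus-like and striatal projection neuron-like nuclei had none of their own markers there either, although every marker of each list was detected in its class. Nuclei were gated on these same lists, so neither of these observations on markers is an independent check of a class. Markers of cortical excitatory neurons, summed, were at 1386 CPM in their own class and at 199 to 443 CPM in the others (a median of 21.1% of their own level, the highest of the lists), and its part in the levels below was not tested. Barcode sequences that occurred in more than 1 library made up 1264 barcodes (1.67%). Per library, mature oligodendrocyte-like nuclei numbered 476, 545, 102, 91, 351 and 79, so that values in libraries 3, 4 and 6 rest on few nuclei of that class. OPC-like nuclei numbered 202, 245, 194, 168, 169 and 118. Sums over the 6 libraries thus weight the libraries differently in these classes, and ratios of such sums mix stage with library. Levels are compared between classes for the same gene. Shares of a gene in the UMIs of it and its paralog are also compared between classes, and are not read as a ranking of the 2 genes.

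Over all kept nuclei, Srebf2 was counted at 88.0 CPM, with 84.7, 89.4, 96.1, 99.7, 77.2 and 70.6 CPM in libraries 1 to 6. Scap was at 35.7 CPM, Insig2 at 25.8, Mylip at 25.5, Insig1 at 11.4, Nr1h2 at 8.91, Srebf1 at 8.87 and Nr1h3 at 2.27 CPM. The ratio of the highest to the lowest library ran from 1.12 for Insig1 to 1.44 for Srebf1. For every gene the 6 libraries thus lay within 1.5-fold of each other over all kept nuclei. Within a class the libraries could differ more. In mature oligodendrocyte-like nuclei, Scap ran from 31.1 to 64.3 CPM by library, while its class levels ran from 27.8 to 48.6 CPM. Insig1 ran from 9.34 to 31.4 CPM by library in the same nuclei. Between 35.1% (Scap) and 44.5% (Srebf1) of the UMIs of a gene came from gated nuclei.

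By class total, Srebf2 was highest in mature oligodendrocyte-like nuclei and next in astrocyte-like nuclei, and close to level elsewhere. The astrocyte lead over neurons depends on this scaling. In astrocyte-like over cortical excitatory nuclei the log2 ratio was 0.50, and 0.01 relative to the median of all genes. Mature nuclei had 139 CPM (132 to 146), from 1578 UMIs, with 132, 151, 149, 161, 129 and 100.4 CPM in libraries 1 to 6. Astrocyte-like nuclei had 122 CPM (118 to 126), with 125, 124, 135, 112, 114 and 103 CPM by library. Mature nuclei were above astrocytes in 5 of 6 libraries and had the highest level of the 14 classes in 5 of 6, with library 6 the exception to both counts. The other 12 classes lay between 67.7 CPM in interneuron-like nuclei and 89.9 CPM (75.2 to 107) in ependymal-like nuclei, and most neighbours in that order had overlapping intervals. Against the rest of the gated nuclei the mature level was 1.58-fold (1.50 to 1.66). Per nucleus the order differed: 100 mature nuclei held 96.0 Srebf2 UMIs and 100 cortical excitatory nuclei, which had a median of 9631 UMIs, held 96.2.

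**Figure D1:**
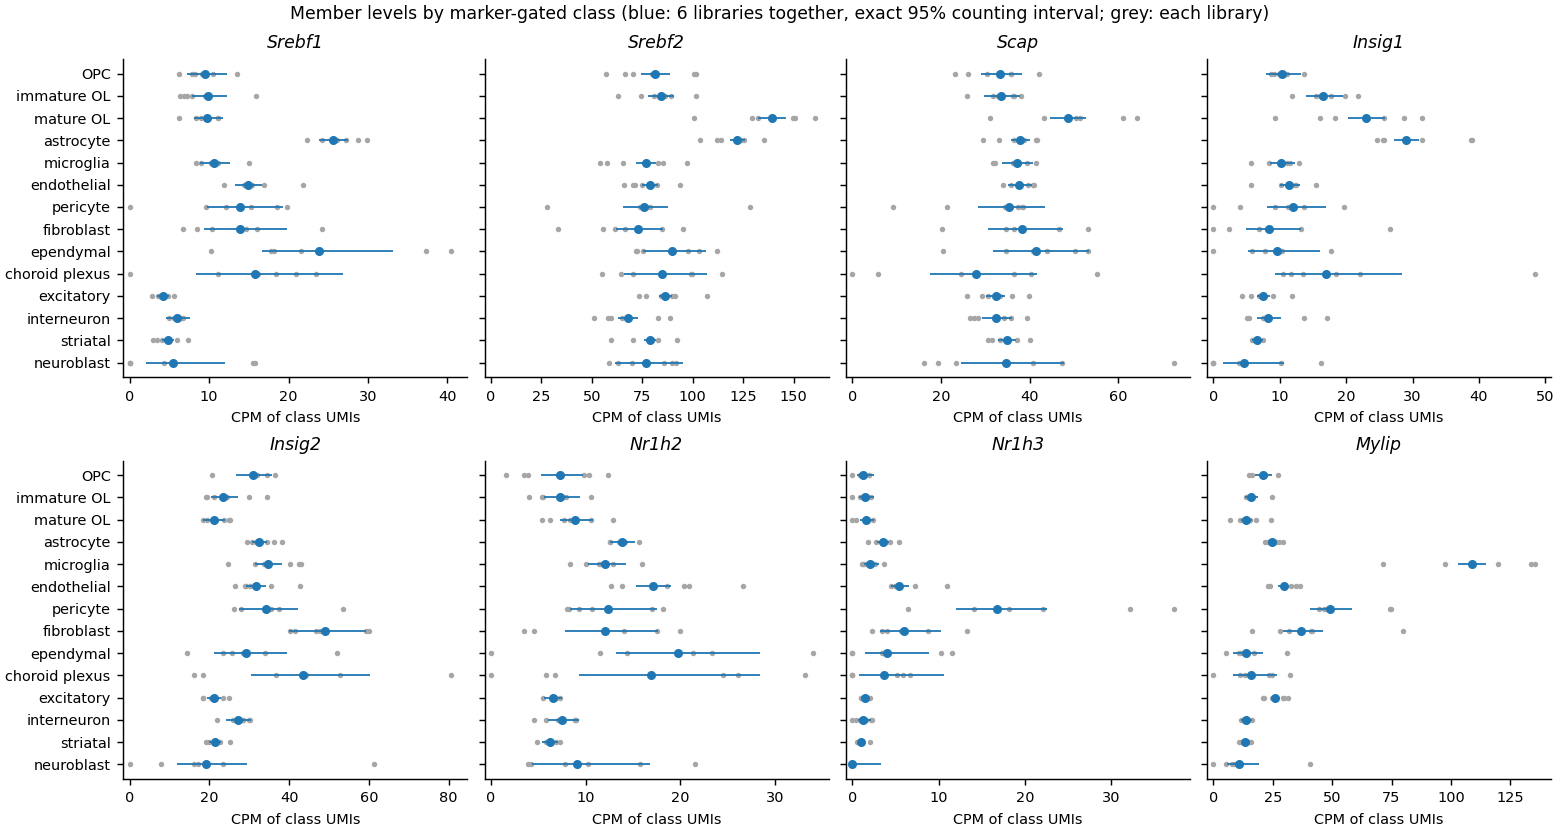
Level of each gene (x axis, CPM of all UMIs of the class) in the 14 marker-gated classes (y axis). Blue points with bars are the 6 libraries together with the exact 95% counting interval, and grey points are single libraries. Mylip stood at 109 CPM in microglia and Srebf2 at 139 CPM in mature oligodendrocytes (OL), while Scap spanned only 27.8 to 48.6 CPM.

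Srebf1 had another order, with astrocyte-like nuclei at 25.6 CPM (23.9 to 27.4) and neurons at the bottom. In libraries 1 to 6 the astrocyte level was 27.3, 22.4, 24.2, 26.1, 28.7 and 29.9 CPM. Ependymal-like nuclei were next at 23.8 CPM (16.6 to 33.1) from 35 UMIs, and the interval of their ratio to astrocytes included 1. Choroid plexus, endothelial, pericyte and fibroblast-like nuclei followed at 13.8 to 15.7 CPM with overlapping intervals. The 3 oligodendrocyte stages were indistinguishable, at 9.52 CPM in OPC-like nuclei, 9.84 in immature and 9.79 in mature nuclei. Cortical excitatory nuclei had 4.18 CPM (3.46 to 5.003), and all 6 of their library values, 2.75 to 5.59 CPM, lay below the lowest astrocyte value. The astrocyte level was 3.12-fold (2.85 to 3.42) that of the other gated nuclei.

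Scap, the escort, was the flattest of the 8 genes. Its level ran from 27.8 CPM (17.6 to 41.8) in choroid plexus-like nuclei to 48.6 CPM (44.6 to 52.8) in mature oligodendrocyte-like nuclei, a 1.75-fold span. In libraries 1 to 6 the mature level was 43.2, 50.4, 31.1, 64.3, 51.3 and 61.0 CPM, and it was the highest class in 2 of 6 libraries.

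The anchors differed from each other. Insig1, which is itself a target of SREBP, was highest in astrocyte-like nuclei at 29.0 CPM (27.2 to 30.9), with 31.4, 24.7, 25.5, 25.8, 38.8 and 39.0 CPM by library, and mature oligodendrocytes were second with 22.9 CPM (20.2 to 25.9). The mature values by library were 25.7, 18.4, 9.34, 16.1, 31.4 and 28.7 CPM, each below the astrocyte value of the same library, and the value of library 3 rests on 6 UMIs. Over the 6 libraries together, levels were 16.6 CPM at the immature stage and 10.3 CPM in OPC-like nuclei. The 4 neuronal classes had 4.57 to 8.25 CPM. By library the immature values were 17.8, 15.4, 11.8, 16.1, 19.9 and 21.7 CPM. In library 3 the immature value was above the mature one, and in library 4 both were at 16.1 CPM. Insig2, which is not a classical SREBP target, was instead highest in fibroblast-like nuclei at 48.9 CPM (40.1 to 59.2), with 40.3, 47.2 and 60.0 CPM as the lowest, median and highest library. Fibroblast-like nuclei were the highest class in 3 of 6 libraries, and the interval of their ratio to choroid plexus-like nuclei included 1. Choroid plexus-like nuclei had 43.6 CPM (30.5 to 60.3) and microglia-like nuclei 34.7 CPM (31.4 to 38.2), and mature oligodendrocyte-like nuclei, second for Insig1, were next to last for Insig2 at 21.1 CPM (18.5 to 23.9).

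Because both anchors are read in the same nuclei, the share of Insig1 in the UMIs of both does not depend on the class total. That share was 25.0% (19.8 to 30.8) in OPC-like, 41.3% (36.0 to 46.8) in immature and 52.1% (47.6 to 56.6) in mature oligodendrocyte-like nuclei. By library the OPC shares were 19.2, 22.2, 23.9, 40.0, 24.2 and 25.9%, and the mature shares were 58.4, 46.5, 27.3, 45.5, 57.1 and 53.3%. The mature share was the higher in 6 of 6 libraries, by little in libraries 3 and 4, and the 2 ranges overlap. Immature nuclei were also above OPC-like nuclei in 6 of 6 libraries, with shares of 42.1, 42.2, 28.3, 45.2, 51.0 and 38.7%. The mature share was below the immature share in library 3 and close to it in library 4. Astrocyte-like nuclei had 47.1% (44.9 to 49.4), and the remaining 10 classes had 14.5% to 28.0%. No class outside the oligodendrocyte lineage and astrocytes reached the immature share.

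**Figure D2:**
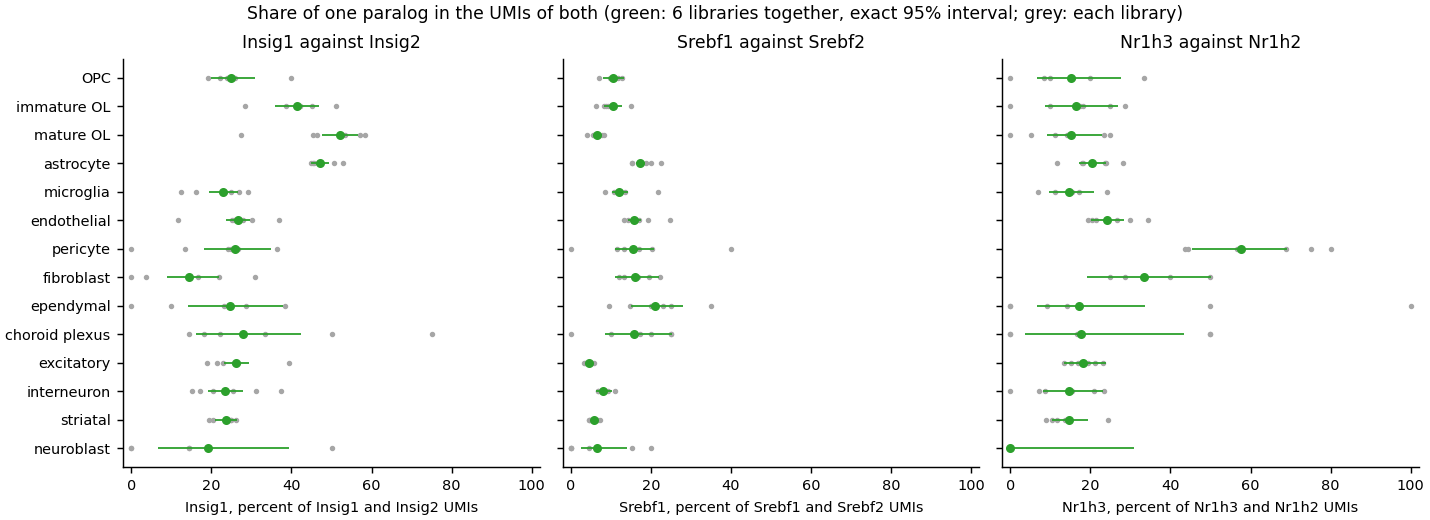
Share (x axis, percent) of Insig1, Srebf1 and Nr1h3 in the UMIs of each with its paralog, by class (y axis), green for the 6 libraries together with exact 95% intervals and grey for single libraries. With the 6 libraries together, Insig1 stood at 25.0% in OPC and 52.1% in mature oligodendrocytes (OL), and Nr1h3 at 57.5% in pericytes.

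For the transcription factors, the Srebf1 share of Srebf1 and Srebf2 UMIs was 10.5% (8.06 to 13.3) in OPC-like, 10.5% (8.42 to 12.8) in immature and 6.57% (5.44 to 7.86) in mature nuclei, and mature nuclei were lower than OPC-like nuclei in 6 of 6 libraries. Astrocyte-like nuclei had 17.3% (16.3 to 18.4) and cortical excitatory nuclei 4.61% (3.83 to 5.50), with 15.2 to 22.4% and 3.31 to 5.77% over the libraries, so these 2 ranges did not overlap.

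The LXR genes differed in their highest classes. Nr1h2 (LXRβ) ran from 6.22 CPM (5.42 to 7.11) in striatal projection neuron-like nuclei to 19.7 CPM (13.2 to 28.4) in ependymal-like nuclei, and its next highest class was endothelial at 17.1 CPM (15.3 to 19.0), with 20.4, 18.6, 12.7, 13.8, 26.6 and 20.9 CPM by library. The ependymal and endothelial levels could not be told apart at this depth, and the ependymal class was the highest in 2 of 6 libraries. Nr1h3 (LXRα) had its highest level in pericyte-like nuclei, at 16.7 CPM (12.03 to 22.6), although from only 42 UMIs. The 6 library values were 14.1, 22.1, 18.1, 6.43, 37.2 and 32.1 CPM, from 7, 13, 11, 4, 4 and 3 UMIs, and pericytes were the highest class in 5 of 6 libraries (ependymal-like nuclei in library 4). Fibroblast-like nuclei had 6.002 CPM (3.20 to 10.3), endothelial-like nuclei 5.43 (4.46 to 6.55) and astrocyte-like nuclei 3.55 (2.93 to 4.27). Microglia-like nuclei, at 2.08 CPM (1.35 to 3.07), lay below all of these, and the 86 neuroblast-like nuclei had 0 UMIs, with an exact upper bound of 3.37 CPM. The pericyte level was 7.09-fold (5.03 to 9.76) that of the other gated nuclei, where 9.44% of 19758 genes were 2-fold or more higher in pericytes. Endothelial markers were at 636 CPM in pericyte-like and 7152 CPM in endothelial-like nuclei, and pericyte markers at 1583 CPM in endothelial-like and 4802 CPM in pericyte-like nuclei. Their part in either Nr1h3 level was not tested. The Nr1h3 share of both LXR genes was 57.5% (45.4 to 69.0) in pericytes, 33.3% (19.1 to 50.2) in fibroblasts and 14.6 to 24.1% in 11 of the other classes.

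Mylip was higher in microglia-like nuclei than in any other class. Microglia-like nuclei had 109 CPM (103 to 115) from 1307 UMIs, with 109, 97.6, 134, 71.5, 120.0 and 135 CPM in libraries 1 to 6. Pericyte-like nuclei, second, had 48.9 CPM (40.6 to 58.3), with library values of 44.4 to 74.9 CPM, so microglia were above pericytes in 6 of 6 libraries and were the highest class in 6 of 6. The microglial level was 5.14-fold (4.81 to 5.48) that of the other gated nuclei, and 6.56% of 19758 genes were 2-fold or more higher there. Fibroblast-like nuclei followed at 36.9 CPM and endothelial-like nuclei at 29.5 CPM. Cortical excitatory nuclei had 26.1 CPM and astrocyte-like nuclei 24.7 CPM, with overlapping intervals. Immature and mature oligodendrocyte-like nuclei had 15.96 and 13.85 CPM. With each microglial nucleus given the same weight, the level was 164 CPM, and without the deepest 10% of nuclei it was 147 CPM. Macrophage markers stood at 41.5 CPM in microglia-like nuclei and at 4.74 to 44.8 CPM in all other classes, and their part was not tested.

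Across the oligodendrocyte lineage, the 2 stages after OPC were each set against OPC-like nuclei. A gene was counted as higher or lower at a 2-fold difference of CPM and with at least 50 UMIs over both classes, which 7 of the 8 regulators passed and Nr1h3 did not. This is a rule of size and not a test. Markers of other classes moved with stage. Interneuron markers, summed, were at 2839 CPM in OPC-like, 1249 in immature and 627 in mature nuclei. Most of this came from Nxph1 (1696, 660.2 and 212 CPM) and Adarb2 (1071, 500.4 and 340.3 CPM). The other markers of this list showed no such fall. Sst was at 21.9, 29.2 and 23.2 CPM over the 3 stages and at 69.5 CPM in interneuron-like nuclei. Cnr1 was at 23.7, 25.2 and 25.9 CPM, against 122 CPM there. Npy was at 17.6 CPM or less in these stages, against 59.5 CPM, and Pvalb at 8.64 CPM or less, against 28.1 CPM. Vip was at 5.40 CPM or less, against 33.0 CPM, and Lhx6 at 2.74 CPM or less, against 50.9 CPM. OPC markers were at 1513, 539 and 85.1 CPM over the 3 stages. The part of either in the ratios was not tested. Immature nuclei had 0 of 7 higher and 0 of 7 lower, where 5.03% and 3.91% of 13210 genes were higher and lower. The largest of these differences was that of Insig1, at a log2 ratio of 0.68 (0.24 to 1.13) and above 0 in 6 of 6 libraries. Insig2 was at −0.40 (−0.69 to −0.10), below 0 in 5 of 6, and Mylip at −0.38 (−0.74 to −0.02), below 0 in 6 of 6. Srebf1, Srebf2, Scap and Nr1h2 were between 0.01 and 0.05 with intervals that included 0.

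In mature nuclei, 1 of 7 was higher (Insig1) and 0 of 7 lower, beside 8% higher and 8.44% lower among 13627 genes. Insig1 had a log2 ratio of 1.15 (0.75 to 1.57), with −0.08 in library 3 and 0.23 to 1.56 in the others. Srebf2 followed at 0.77 (0.63 to 0.92), above 0 in 6 of 6 libraries, and Scap at 0.54 (0.31 to 0.78), above 0 in 5 of 6. Insig2 and Mylip went the other way, at −0.56 (−0.84 to −0.27) and −0.59 (−0.93 to −0.24), below 0 in 6 of 6 libraries each. Srebf1 was at 0.04 (−0.43 to 0.52) and Nr1h2 at 0.29 (−0.23 to 0.84). The median of all genes was −0.10, and scaling by trimmed mean of M-values (TMM) in place of the class total moved every ratio up by 0.14 and the higher share of the genes called from 48.7% to 58.8%.

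**Figure D3:**
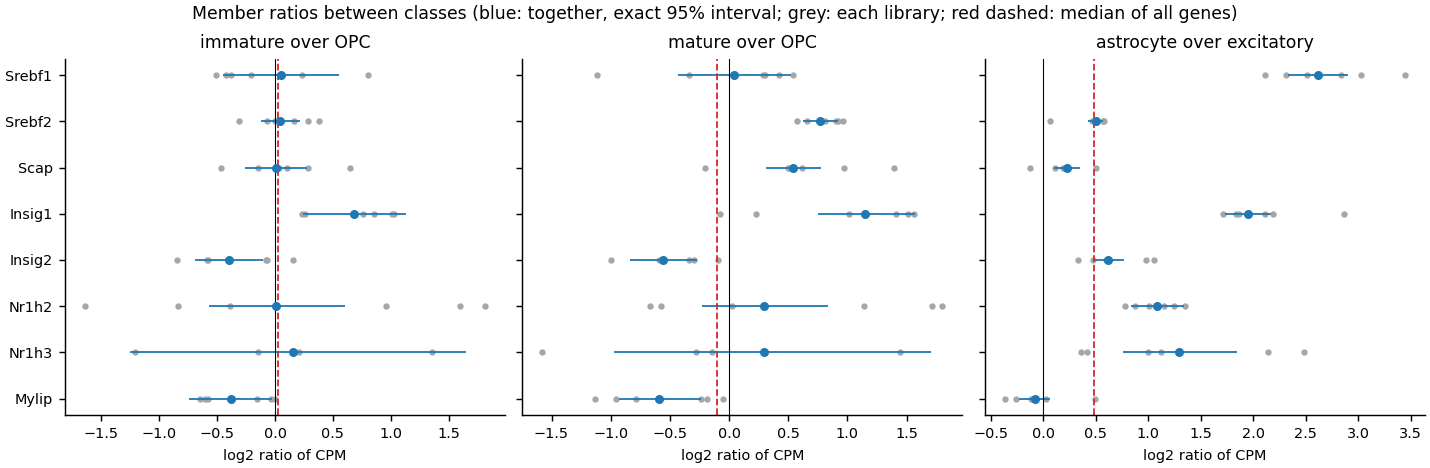
Log2 ratio of CPM (x axis) of each gene (y axis) in the 3 class contrasts, blue for the 6 libraries together with the exact 95% interval and grey for single libraries. The dashed red line is the median of all genes, at 0.03, −0.10 and 0.49. Insig1 lies right of it in each panel, and Mylip left of it in each.

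A glial and a neuronal class were compared in the same way. In astrocyte-like over cortical excitatory nuclei, 4 of 8 regulators were higher and 0 of 8 lower, beside 29.5% higher and 8.48% lower among 16806 genes. Srebf1 had a log2 ratio of 2.62 (2.34 to 2.91), Insig1 1.95 (1.73 to 2.17), Nr1h3 1.29 (0.76 to 1.84) and Nr1h2 1.09 (0.84 to 1.34), each above 0 in 6 of 6 libraries. The median of all genes was itself 0.49, and TMM scaling moved every ratio down by 0.47, brought the higher share of the genes called from 77.7% to 54.2% and left 2 of 8 regulators higher, Srebf1 at 2.15 and Insig1 at 1.48, beside 17.5% of all genes. Relative to the median of all genes, Srebf1 was at 2.13, Insig1 at 1.46, Nr1h3 at 0.80, Nr1h2 at 0.60, Insig2 at 0.13, Srebf2 at 0.01, Scap at −0.26 and Mylip at −0.57. Insig2, at 0.62 (0.47 to 0.77), and Mylip, at −0.08 (−0.23 to 0.07), were under 2-fold in either direction. Srebf2 had a log2 ratio of 0.50 (0.43 to 0.57) by class total and 0.03 with TMM, and Scap, 0.23 by class total, was at −0.24 with TMM, so the direction for Scap depends on the scaling and the Srebf2 ratio is near 0 with TMM. Excitatory markers were at 293 CPM in astrocyte-like nuclei and astrocyte markers at 61.1 CPM in excitatory nuclei.

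The genes that the regulators act on or with were described by fixed lists in the same contrasts. Among 20 SREBP2-regulated cholesterol genes with enough UMIs (of 21), 12 were higher and 0 lower in mature over OPC-like nuclei, with a median log2 ratio of 1.23, where 8% and 8.44% of all genes were higher and lower and their median was −0.10. The sterol dehydrogenase Nsdhl had 2.08 (1.76 to 2.43), farnesyl diphosphate synthase Fdps 1.78 and the methylsterol monooxygenase Msmo1 1.74, each above 0 in 6 of 6 libraries. In immature nuclei 1 of 20 was higher, the mevalonate pathway enzyme Mvd at 1.13 (0.63 to 1.65), a share near the 5.03% of all genes, while 19 of 20 were above 0, beside 7045 of 13210 genes, and the median was 0.52, beside 0.03. In astrocyte-like over excitatory nuclei 14 of 20 were higher, beside 29.5% of all genes, with a median of 1.25 and with Msmo1 at 2.41, Nsdhl at 2.25 and the isomerase Idi1 at 1.68, and with TMM 5 of 20 were higher, beside 17.5% of all genes.

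SREBP1-regulated fatty acid genes were mixed in the lineage and high in astrocytes. In mature over OPC-like nuclei, 1 of 12 was higher, the acetyl-CoA synthetase Acss2 at 2.03 (1.84 to 2.22), and 1 of 12 lower, the desaturase Fads2 at −1.03 (−1.29 to −0.77), which was not 2-fold lower with TMM. Both shares are near the 8% and 8.44% of all genes, and in immature nuclei none of 13 passed either limit. The median in mature nuclei was 0.39, beside −0.10 for all genes, with 7 genes above 0 and 5 below. The summed level of the list was 763 CPM in OPC-like and 1159 CPM in mature nuclei. In astrocyte-like over excitatory nuclei, 10 of 13 were higher and 0 lower, beside 29.5% and 8.48% of all genes (8 and 0 with TMM, beside 17.5% and 14.8%), with a median of 1.86 where all genes had 0.49, among them the acyltransferase Gpam at 3.93, the acetyl-CoA carboxylase Acacb at 3.23, the desaturase Scd1 at 3.01 and Fads2 at 2.76.

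LXR-regulated genes did not follow the cholesterol genes in the lineage. In mature over OPC-like nuclei, 0 of 8 were higher and 1 of 8 lower, the cholesterol exporter Abca1 at −1.33 (−1.59 to −1.08), below 0 in 6 of 6 libraries, beside 8% and 8.44% of all genes, and the median was −0.24. The lower count was 2 without library 1 or library 2, without the deepest nuclei and with equal weight of nuclei or of libraries. In immature nuclei 0 of 8 were higher or lower, with 1 lower without library 4, without the deepest nuclei and with equal weight of nuclei. In astrocyte-like over excitatory nuclei 6 of 8 were higher and 0 lower, beside 29.5% and 8.48% of all genes (5 and 1 with TMM, beside 17.5% and 14.8%), with a median of 1.59, led by Abca1 at 4.57 (4.38 to 4.76), the lipoprotein gene Apoe at 2.43, Smpdl3a at 2.09 and the phospholipid acyltransferase Lpcat3 at 1.61. Of 8 LXR partners, the receptor partner Rxra (2.48) and the coactivator Ncoa1 (1.03) were higher in astrocytes, a share below the 29.5% of all genes, and with TMM 1 of 8 was, Rxra, beside 17.5%.

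Among enzymes that make or remove oxysterols, the LXR ligands, 2 passed the limit in mature over OPC-like nuclei. The sterol 27-hydroxylase Cyp27a1 had 53.3 CPM in mature and 2.097 CPM in OPC-like nuclei, a log2 ratio of 4.67 (3.88 to 5.58), and 13.9 CPM in immature nuclei. The oxysterol hydroxylase Cyp7b1 went the other way, with 28.8 CPM in mature and 84.5 CPM in OPC-like nuclei, at −1.55 (−1.76 to −1.35). These 2 were the 1 of 4 higher and the 1 of 4 lower in mature nuclei, beside 8% and 8.44% of all genes, and Cyp27a1 was the 1 of 5 higher in immature nuclei, beside 5.03%. The other two counted in mature nuclei, Cyp46a1 and Cyp11a1, were at −0.08 and −0.69. In astrocyte-like over excitatory nuclei, Cyp27a1 (2.101) and Cyp7b1 (1.77) were higher and the side chain cleavage enzyme Cyp11a1 (−1.67) and the sulfotransferase Sult2b1 (−1.20) lower, of 5 counted, beside 29.5% higher and 8.48% lower among all genes.

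Substrates of MYLIP were set beside Mylip itself, which was at −0.59 in mature over OPC-like nuclei. There, 2 of 3 substrates were higher and 1 of 3 lower, beside 8% and 8.44% of all genes. Among them, the VLDL receptor Vldlr was higher (1.35, 1.14 to 1.56). Lrp8, the receptor ApoER2, was lower (−1.05, −1.27 to −0.82), though not 2-fold lower with TMM. In immature nuclei 1 of 3 was higher, Vldlr at 1.16, beside 5.03% of all genes. MYLIP acts on these receptors as proteins, which were not measured. Of 13 SREBP processing partners, such as the proteases Mbtps1 and Mbtps2 that cut SREBP free, 0 were 2-fold higher or lower in any of the 3 contrasts, where 3.91% to 29.5% of all genes were in either direction, with medians of −0.03, −0.10 and 0.36. With TMM, 2 of the 13 were 2-fold lower in astrocyte-like over excitatory nuclei, and these were Erlin1 and Fbxw7, at −0.65 and −0.54 by class total, a share near the 14.8% of all genes lower with TMM.

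**Figure D4:**
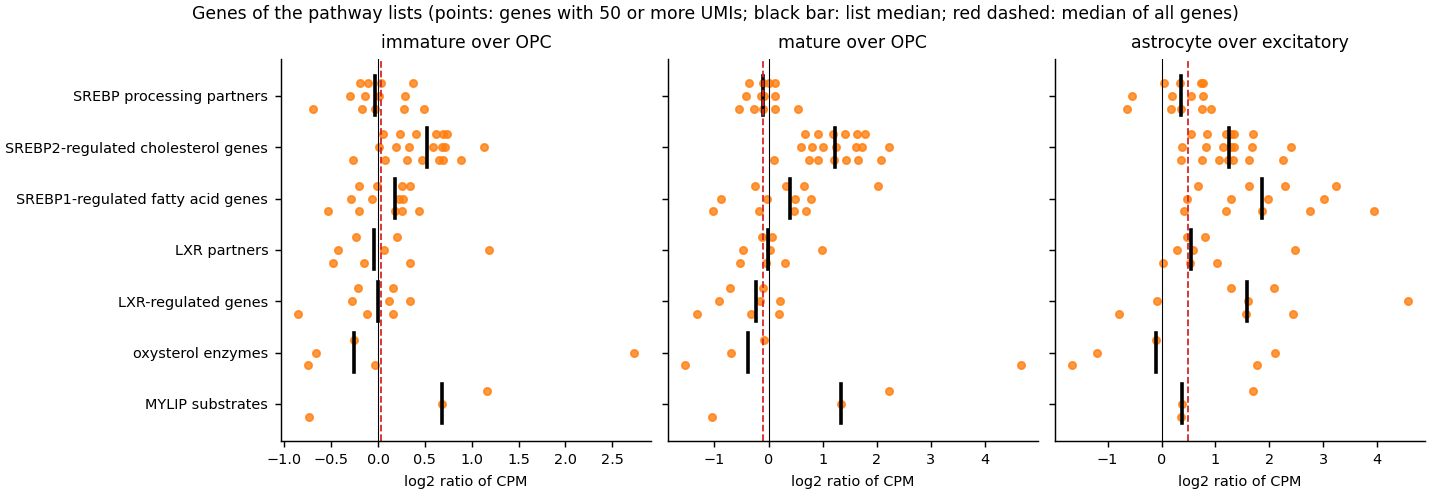
Log2 ratios (x axis) of the genes in 7 pathway lists (y axis) in the 3 contrasts, with 1 orange point per gene that had 50 UMIs or more. Black bars are list medians, and the dashed red line is the median of all genes. The SREBP2-regulated genes lie right of that line in mature over OPC, with a median of 1.23, and the processing partners lie near it.

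Over the 14 classes, the summed level of the SREBP2-regulated genes was 1155 CPM (1135 to 1175) in mature oligodendrocyte-like, 949 in astrocyte-like, 630 in immature and 457 in OPC-like nuclei, and 325 to 524 CPM in the other 10. Its correlation with Srebf2 was 0.87 by Pearson (log2 of CPM plus 1) and 0.48 by Spearman. For Insig1 the values were 0.81 and 0.74. With the SREBP1-regulated fatty acid genes, Insig1 was at 0.85 by either measure, Srebf2 at 0.76 and 0.66, and Srebf1 at 0.74 and 0.72, so that by rank Insig1 and Srebf2 went more with this list than with the cholesterol genes. By class total, Srebf2 and the cholesterol list shared their 2 highest classes in the same order. In the 12 others Srebf2 ran from 67.7 to 89.9 CPM and that list from 325 to 630 CPM. Srebf1 went with the LXR-regulated genes, at 0.94 by either measure, and Apoe alone was 1216 CPM of the 1632 CPM of that list in astrocytes. This was not particular to Srebf1. Nr1h2 was at 0.86 and 0.81 with that list, Nr1h3 at 0.75 and 0.79 and Insig2 at 0.72 and 0.69. Srebf1 was also at 0.67 and 0.79 with the SREBP processing partners. All these levels are scaled by class total. Each is a description over 14 classes drawn from the same libraries and gate, and no test was made.

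**Figure D5:**
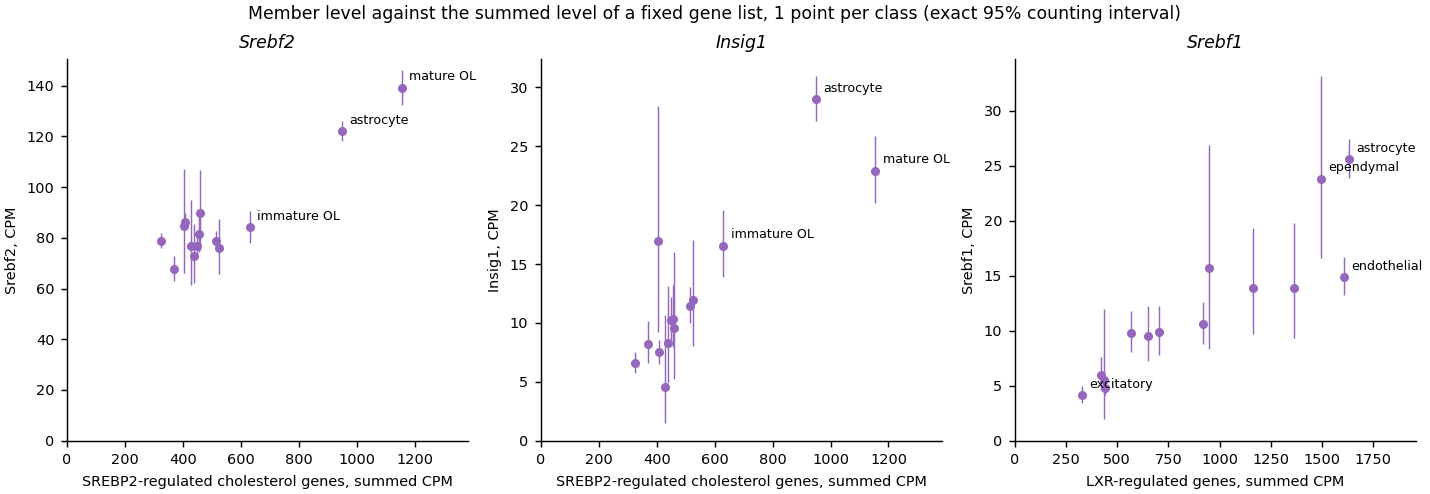
Level of Srebf2, Insig1 and Srebf1 (y axis, CPM with exact 95% counting interval) against the summed CPM of a gene list (x axis), with 1 point for each of 14 classes. By class total, mature oligodendrocytes (OL) and astrocytes stand apart from the 12 others for Srebf2 and the SREBP2-regulated genes, at 1155 and 949 summed CPM. Srebf1 and the LXR-regulated genes run from excitatory neurons at 4.18 CPM to astrocytes at 25.6 CPM.

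For each regulator, the genes with the most similar class pattern were sought by Pearson correlation of log2(CPM + 1) over the 14 classes, among 12186 genes with at least 1000 UMIs. For Srebf2 these included Nsdhl (0.91) and the squalene synthase Fdft1 (0.90), both from the list of SREBP2-regulated genes. Insig1 was nearest to Farp2 (0.88), Prkdc (0.87) and Nsdhl (0.87). Srebf1 was nearest to A930005H10Rik (0.97), the lipoprotein gene Clu (0.96) and Tst (0.96). Scap was nearest to Fez1 (0.89), Hebp1 (0.87) and Kctd3 (0.84), Insig2 to Mrpl13 (0.92), Dcaf12l1 (0.91) and the collagen receptor Ddr2 (0.89), and Nr1h2 to Rhbdd1 (0.95), Atxn7 (0.95) and Tapbp (0.95). Nr1h3 was nearest to Fdx2 (0.96), Vtn (0.95) and Atp13a5 (0.92), the last 2 of which were among the pericyte markers of the gate. Mylip was nearest to the interferon gamma receptor chain Ifngr2 (0.90), the complement gene C1qc (0.89) and Lcp2 (0.88), whose highest class was microglia-like for each.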

How the data were processed

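The deposited values are raw UMI counts, whole numbers for each gene in each barcode. Per the file headers it was written by cellranger 6.0.0, while the submitters' processing notes name Cell Ranger 2.1.1 and mm10 and the authors describe a STARsolo alignment to GRCm38, removal of empty droplets and multiplets and a mitochondrial limit. No source used here states whether multiplets had been removed from the deposited matrix or whether introns and strand were counted. No doublet caller was run. Of the gene identifiers, 32158 of 32285 matched GENCODE M21.

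Barcodes at or above 10% mitochondrial UMIs were left out. A marker counted in a nucleus with 1 UMI or more and at least 2 times its expected count, and a class needed 3 markers and 2 more than any other class. Nuclei with 3 or more markers of more than 1 class numbered 9940 (13.1%) and were kept only with that lead. UMIs were summed per class and library and divided by the class total of UMIs to give CPM. Sums have exact Poisson intervals, shares exact Clopper-Pearson intervals and ratios exact conditional binomial intervals, all at 95% and for counting error only. For the shares of all genes called, 0.5 UMI was added to each sum. The gate rule was set after the data had been seen, and the 8 genes, lists and markers were chosen with earlier results of these data known. The genes named were the 8 regulators, up to 4 genes per list and contrast with at least 2-fold difference, and 3 genes of similar pattern for each regulator, some of which are not reported here. Ratios and intervals were tested on simulated Poisson counts without variation between libraries or nuclei, the same model that the intervals assume. That check cannot show how well the intervals hold for these data.

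Alternatives were TMM scaling, nuclei with 2000 UMIs or more, a gate of 4 markers, removal of the deepest 10% of nuclei, equal weight of nuclei or libraries, a minimum of 10 UMIs and each library left out. Promoter and miRNA sequences are from RefSeq (GRCm38.p6), and all 8 genes matched. Python 3.11.15, numpy 2.4.6, scipy 1.17.1, pandas 2.3.3, matplotlib 3.10.9, R 4.3.3 and edgeR 4.0.16 (for TMM factors) were used.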

Additional observations from a re-analysis of the deposited data

Results flagged for a closer look

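In library 4, the log2 ratio of Srebf2 in astrocyte-like over cortical excitatory nuclei was 0.069, against 0.46 to 0.58 in the other 5 libraries. Its gap to the nearest library was 0.78 of the whole range, above the Dixon limit of 0.625 for 6 values. This was 1 of 38 sets of library values tested, of which chance alone passes about 1 in 20. The 6 libraries are of both genotypes, which the Dixon limit does not allow for. In library 4, Srebf2 was at 112 CPM in astrocyte-like and 107 CPM in excitatory nuclei, the latter being the highest of the 6 excitatory values. Without library 4 the ratio over the others was 0.57.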

How the results depend on the processing

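No paired analysis was possible because, for a pairing by the replicate numbers of the labels, the barcodes carry none of these numbers. The classes of a contrast share their libraries, and their ratios are given within each library, with no test between classes. Of the results on regulator ratios and on counts of regulators, SREBP2-regulated and LXR-regulated genes, 253 of the values under the 7 alternatives other than leaving out a library stayed within their interval or within 1.5 times the count, 16 moved and 1 reversed. TMM scaling accounted for most of them in astrocyte-like over excitatory nuclei: the log2 ratio became 2.15 for Srebf1, 0.030 for Srebf2, 1.48 for Insig1, 0.15 for Insig2, 0.62 for Nr1h2, −0.55 for Mylip and, reversed, −0.24 for Scap, and genes at least 2-fold higher became 2 regulators and 5 SREBP2-regulated genes, with 1 LXR-regulated gene lower. Without the deepest 10% of nuclei, Srebf2 in mature over OPC-like nuclei was 0.95. LXR-regulated genes lower in mature over OPC-like nuclei became 2 without the deepest nuclei and with equal weight of nuclei or of libraries, and in immature over OPC-like nuclei 1 without the deepest nuclei and with equal weight of nuclei. With nuclei of 2000 UMIs or more, 2 SREBP2-regulated genes were higher in immature nuclei. The cause of these shifts was not tested, apart from TMM, which moves all genes alike.

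Leaving out each library in turn kept 248 values and moved 4. Srebf2 in astrocyte-like over excitatory nuclei ran from 0.47 to 0.57, LXR-regulated genes lower in mature nuclei from 1 to 2 (2 without library 1 or 2), and those lower in immature nuclei from 0 to 1 (1 without library 4). Depth limits Nr1h3 most, with 42 UMIs in pericyte-like nuclei and 8 in OPC-like nuclei.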
